A study of Rattus norvegicus with 8 samples.

Results

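The genes described here are the kinases of the mitogen-activated protein (MAP) kinase cascade that the array names by their tier, as Mapk, Map2k, Map3k or Map4k with a number. Each gene was taken by its name and not by its values, though the group was chosen with earlier results of these data known. They came to 40 genes read by 64 probes, out of 36306 gene names on the array. By tier they were 5 MAP4K, 15 MAP3K, 7 MAP2K and 13 MAPK genes. Transcripts were measured in NR8383, a macrophage line that was set up from lavage of the lung of a normal rat. Control cells received no nanotubes, NM401 cells received the multi-walled carbon nanotube NM401 at 0.17 µg/mL, and both groups spent the 4 h in serum-free medium. Each group had 4 arrays, biological replicates 1 to 4 per the labels, all from 1 cell line. The p-values therefore measure the spread between cultures of that line.

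A MAP kinase cascade passes a signal from the membrane to the cytoplasm and nucleus by phosphorylation. A MAP3K phosphorylates a MAP2K, which phosphorylates a MAPK, and a MAP4K can stand above the MAP3K. The branches are named after their last kinase, ERK, JNK, p38 or ERK5, and in macrophages they are known for driving cytokine and chemokine production after contact with microbes, stress or particles. Cascade activity is set largely by phosphorylation of the kinases, which these arrays did not measure.

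Values are log2 of the background-subtracted processed signal minus the 75th percentile of that signal on the same array, so that 0 marks a spot as bright as the percentile. Values of different probes cannot be set against each other, because probes differ in how well they bind. A probe was tested where the software marked it well above background on 4 or more of the 8 arrays, and a gene was read at its tested probe with the highest mean. A gene was called where limma's adjusted p was below 0.05, with Benjamini-Hochberg adjustment over all 21684 probes tested. Differences are NM401 minus control on the log2 scale each with its standard error (SE), and group values are means ± SD with n = 4 arrays. In RNA from a whole culture, fewer cells of a type and less RNA per cell cannot be told apart.

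The percentile used for scaling was 1236 ± 224 signal units on control arrays and 2692 ± 172 on NM401 arrays (two-sided exact permutation test, p = 0.0286, the smallest that 4 against 4 can give). Control replicates 1 to 4 and NM401 replicate 1 shared slide 1, NM401 replicates 2 to 4 were on slide 2, and row 1 of the slides held controls and row 2 held NM401 arrays. Row and treatment cannot be told apart, and any comparison within a slide rests on NM401 replicate 1. The 7 spike-in probes used stood at 3.22 ± 0.48 on control and 0.93 ± 0.21 on NM401 arrays relative to the percentile, a difference of -2.29 that is larger than any fall among the kinases, and no fit was scaled to them. Of 12 macrophage markers on the array, 11 were well above background on at least 4 arrays and Marco on none, and among the 11 tested 4 rose, 3 fell and 4 were not called, with a median difference of 0.24. Their summed signal, in which bright probes weigh most, was 4980 to 5360% of the percentile on control and 4250 to 4460% on NM401 arrays. Among 9 epithelial, 6 lymphocyte, 8 fibroblast and endothelial and 6 neutrophil markers, those above background on at least 4 arrays were Cd3d, Col1a2, Pecam1, Cdh5, Mpo and S100a8. The markers above background on 0 arrays included Epcam and Cdh1 for epithelium, Cd3e and Cd3g for lymphocytes, Col1a1 and Pdgfra for fibroblasts, Kdr for endothelium, and Elane and Csf3r for neutrophils. Their summed signals ran from 6.58 to 8.77% on control against 3.02 to 8.22% on NM401 arrays for epithelium, from 10.7 to 15.2% against 6.88 to 12.4% for lymphocytes, from 77.5 to 82.8% against 60.4 to 70.9% for fibroblasts and endothelium, and from 7.53 to 10.2% against 2.48 to 3.79% for neutrophils. The part of these markers in the results was not tested.

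Kinases of every tier were measured in these cells, and after NM401 they moved in both directions, with no tier going one way. Of the 40 genes, 34 were tested, and of these 10 rose, 9 fell and 15 were not called. The 19 called genes were 55.9% of those tested, against 57.3% of all 17444 genes tested, so the kinases were called about as often as genes in general. By direction, 21.9% of all genes were called higher and 35.4% lower. The 4 values of one group lay wholly above those of the other in 19 of the 34 genes, or 55.9%, against 53.2% of all genes. A call together with a change of at least 1.5-fold was met by 6 of the 34, or 17.6%, against 22.3% of all genes. The median difference was 0.10 over the 34 kinases and -0.10 over all genes. The larger changes were falls of Mapk13, Map4k1, Map3k10, Mapk3 and Map3k9, between 1.59-fold and 2.18-fold, and a 2.03-fold rise of Map3k14. Map3k9 was called lower at 1 of its 3 tested probes, and the rise of Map3k14 depended on how background was treated.

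**Figure D1:**
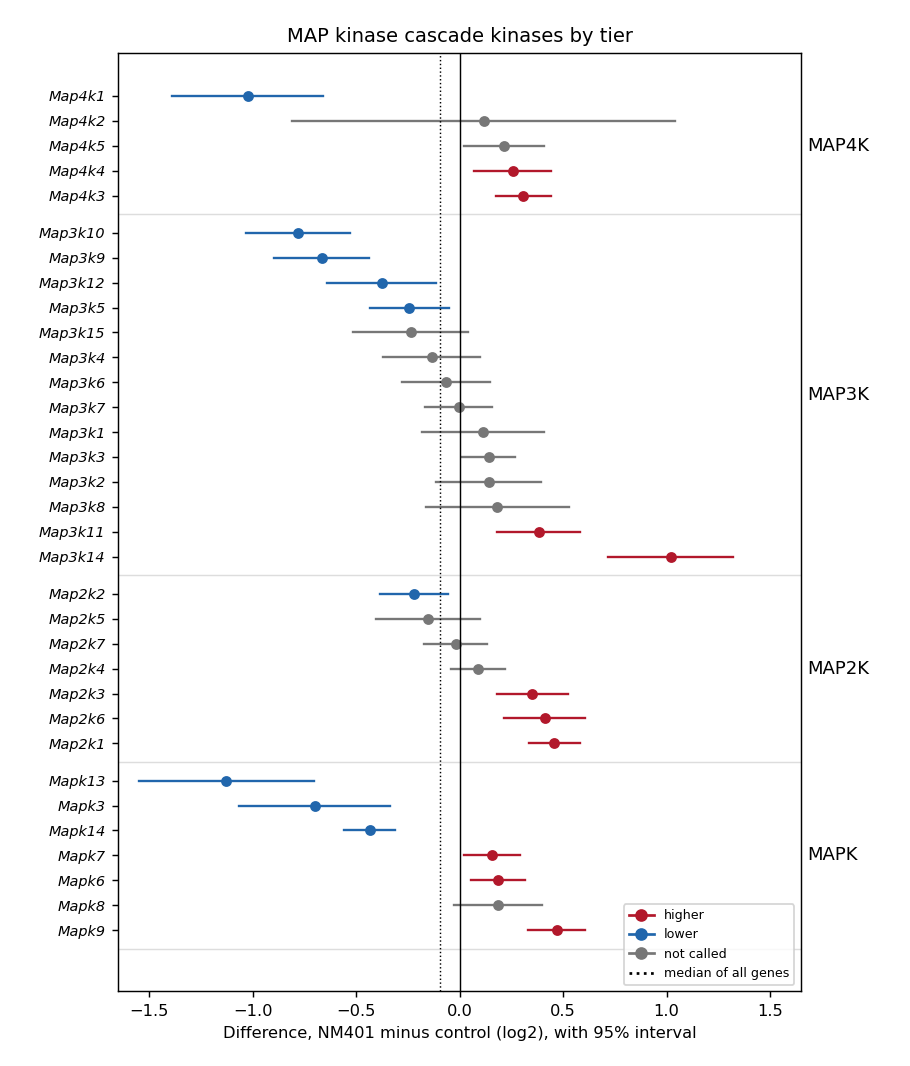
Difference between NM401 and control arrays (log2, x axis) for 33 of the 34 tested kinases, grouped by tier, with the 95% interval of the limma fit; the dotted line marks the median of all genes at -0.10. Red marks genes called higher, blue called lower and grey not called, and each tier holds genes on both sides of 0, from Mapk13 at -1.13 to Map3k14 at 1.02.

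All 5 MAP4K genes, the kinases above the MAP3K tier, were tested, and 2 rose, 1 fell and 2 were not called, with a median difference of 0.21. Map4k1 encodes HPK1, a kinase of blood cells that restrains lymphocyte receptor signalling. Its values were -2.02, -2.04, -1.96 and -1.32 on control replicates 1 to 4 and -2.77, -2.91, -2.81 and -2.95 on NM401 replicates 1 to 4. Every NM401 array lay below every control array, and control replicate 4 stood above the other controls. Map4k1 was 2.03-fold lower with NM401, a difference of -1.02 (SE 0.16, limma adjusted p = 0.00106), and without control replicate 4 the difference was -0.85. Map4k3 encodes GLK, a kinase that links nutrient supply to growth signalling, and was measured at -0.12, -0.12, -0.21 and -0.29 on control and 0.09, 0.13, 0.10 and 0.17 on NM401 arrays. The groups did not overlap, and Map4k3 rose by 0.31 (SE 0.06, limma adjusted p = 0.00249). With slide as a block, which rests on NM401 replicate 1, it differed by 0.28 and was not called (limma adjusted p = 0.0569). Map4k4, a kinase that acts on the JNK branch and on the cytoskeleton, was measured at 0.97, 1.16, 1.11 and 1.17 on control and 1.22, 1.34, 1.34 and 1.53 on NM401 arrays. It rose by 0.26 (SE 0.08, limma adjusted p = 0.0255) with no overlap, but was not called without control replicate 1 or without NM401 replicate 2, 3 or 4 (largest adjusted p 0.0627). With slide as a block the difference was 0.12 (limma adjusted p = 0.462). Map4k5 differed by 0.21 (limma adjusted p = 0.0588). Map4k2 differed by 0.12 with a 95% interval from -0.81 to 1.04, which leaves its change undetermined, and it was well above background on 3 of 4 control arrays. NM401 replicate 3, at -3.99, stood above the other NM401 arrays (-5.93 to -5.39), and without it the difference turned to -0.31.

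The MAP3K tier takes in signals from many receptors and stresses, and its members fall into families. Of 15 genes, 14 were tested, and 2 rose, 4 fell and 8 were not called, with a median difference of -0.03. The mixed lineage kinases Map3k9, Map3k10 and Map3k11 (MLK1, MLK2 and MLK3), which act mainly on the JNK branch, were all called, in both directions. Map3k10 was measured at -4.19, -4.39, -4.66 and -4.21 on control and -5.14, -5.04, -5.24 and -5.16 on NM401 arrays. All 4 NM401 values lay below the controls, and Map3k10 was 1.72-fold lower, a difference of -0.78 (SE 0.11, limma adjusted p = 0.000633). Map3k9 was measured at -2.42, -2.28, -2.19 and -2.02 on control and -3.00, -2.74, -2.84 and -2.99 on NM401 arrays, again with no overlap. It was 1.59-fold lower, a difference of -0.67 (SE 0.10, limma adjusted p = 0.000879), at 1 of its 3 tested probes, and the other probes gave -0.07 and -0.09 and were not called. The mean of its 3 probes fell by less, with a difference of -0.27. Map3k11 went the other way, with -1.84, -1.89, -2.05 and -1.82 on control and -1.73, -1.47, -1.43 and -1.45 on NM401 arrays. The groups did not overlap, although NM401 replicate 1 lay nearer the controls than the other NM401 arrays. Map3k11 rose by 0.38 (SE 0.09, limma adjusted p = 0.00656), and with slide as a block, which rests on NM401 replicate 1, the difference was 0.17 and was not called (limma adjusted p = 0.241).

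Map3k14 encodes NIK, the kinase that starts the non-canonical NF-kappaB pathway. Its values were -5.66, -5.23, -5.47 and -5.84 on control and -4.71, -4.50, -4.43 and -4.48 on NM401 arrays, so that all NM401 arrays lay above all controls. Map3k14 was 2.03-fold higher, a difference of 1.02 (SE 0.13, limma adjusted p = 0.000435), on processed signal. The difference turned to -0.11 with normexp background correction and was 0.01 in the deposited series table, called in neither. The first adds 50 signal units and the second is spot intensity without background subtraction, while the percentile used for scaling differed between groups. Neither can therefore settle the direction of a dim probe. The probe was dim, well above background on 3 of 4 control arrays and on all 4 NM401 arrays. Map3k5 encodes ASK1, which answers oxidative stress, and was measured at -1.67, -1.81, -1.95 and -1.99 on control and -2.20, -2.10, -2.09 and -2.01 on NM401 arrays. The groups were separate by a narrow margin, and Map3k5 fell by 0.24 (SE 0.08, limma adjusted p = 0.036). That call was lost without control replicate 1 or 2 or NM401 replicate 1, 2 or 3 (largest adjusted p 0.0814), and with slide as a block (limma adjusted p = 0.0825). The mean of its probes, -0.15, and its value under median scaling, -0.04, were not called, and a second Map3k5 probe gave -0.07. Map3k12 (DLK, a kinase best known from neurons) fell by 0.38 (SE 0.11, limma adjusted p = 0.0227), with control and NM401 values that overlapped. It was not called without control replicate 1 or 2 or NM401 replicate 2, 3 or 4 (largest adjusted p 0.0619). Median scaling gave -0.17 and slide as a block -0.19, neither called.

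The other MAP3K genes tested were Map3k1 to Map3k4, Map3k6, Map3k7, Map3k8 and Map3k15, and none of these was called, with differences from -0.24 for Map3k15 to 0.18 for Map3k8. Map3k7 encodes TAK1, which couples Toll-like and interleukin receptors to the JNK and p38 branches. Its difference was 0.00, with a 95% interval from -0.17 to 0.16, and a second probe gave 0.03. Map3k8 encodes TPL2, the kinase that links those receptors to ERK in macrophages, and its values were 0.07, -0.04, -0.04 and -0.64 on control and 0.05, 0.02, -0.10 and 0.10 on NM401 arrays. Control replicate 4 lay below the other controls, the groups overlapped, and the 95% interval of the difference ran from -0.16 to 0.53. Map3k3 differed by 0.14 with no overlap between groups (limma adjusted p = 0.0595). Over the 15 uncalled kinases of all tiers, 14 had a 95% interval that lay within 1.5-fold in either direction, Map4k2 being the exception.

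All 7 MAP2K genes were tested, and 3 rose, 1 fell and 3 were not called, with a median difference of 0.09 and no change of 1.5-fold. The MAP2Ks are the narrow point of each branch. Map2k1 and Map2k2 (MEK1 and MEK2) activate ERK. Map2k1 was measured at 1.45, 1.48, 1.46 and 1.57 on control and 1.99, 1.90, 2.00 and 1.90 on NM401 arrays. The arrays of each group lay close together with a clear gap between groups, and Map2k1 was 1.37-fold higher, a difference of 0.46 (SE 0.05, limma adjusted p = 0.00029). Its second probe gave 0.43 and was called as well. Map2k2 was measured at 1.00, 1.00, 0.88 and 1.17 on control and 0.71, 0.79, 0.82 and 0.84 on NM401 arrays, and moved against its partner. It fell by 0.22 (SE 0.07, limma adjusted p = 0.0279) with no overlap, but was not called without control replicate 1 or 2 or NM401 replicate 1, 2 or 3 (largest adjusted p 0.063), and not with slide as a block (limma adjusted p = 0.0772). Its difference under median scaling was -0.02.

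Map2k3 and Map2k6 (MKK3 and MKK6) activate p38. Map2k3 was measured at 1.84, 1.97, 1.70 and 1.83 on control and 2.32, 2.17, 2.13 and 2.13 on NM401 arrays. The groups did not overlap, and Map2k3 rose by 0.35 (SE 0.07, limma adjusted p = 0.00475), while its second probe gave 0.15 and was not called. Map2k6 was measured at -5.05, -5.04, -4.97 and -4.76 on control and -4.70, -4.49, -4.46 and -4.54 on NM401 arrays. It rose by 0.41 (SE 0.08, limma adjusted p = 0.00408) on processed signal, with no overlap. The difference turned to -0.25 (limma adjusted p = 0.0399) with normexp background correction and to -0.21 in the deposited series table. The direction of Map2k6 thus depended on how background was treated. As for Map3k14, neither of those sets of values can settle the direction of a dim probe. With slide as a block it differed by 0.26 and was not called (limma adjusted p = 0.14). Map2k4 and Map2k7 (MKK4 and MKK7) are the activators of JNK. Map2k4 differed by 0.09 at its only probe and Map2k7 by -0.02 at its brighter probe, neither called. A dimmer Map2k7 probe, well above background on 3 control and 2 NM401 arrays, read -5.30, -5.45, -5.57 and -5.38 on control and -6.39, -6.46, -6.36 and -5.89 on NM401 arrays. That probe was lower by 0.85 (SE 0.13, limma adjusted p = 0.000987). The mean of both Map2k7 probes differed by -0.44 and was called lower (limma adjusted p = 0.00159). Map2k5, the activator of ERK5, differed by -0.15 and was not called.

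Of the 13 MAPK genes at the end of the cascade, 8 were tested, and 3 rose, 3 fell and 2 were not called, with a median difference of -0.04. The other 5 were Mapk4, Mapk10, Mapk11, Mapk12 and Mapk15. Mapk4 was well above background on 1 control and 1 NM401 array, and the others on 0 of 8 arrays at the probe that stands for them, as was Map3k13 among the MAP3Ks. Mapk10 encodes JNK3, best known from brain, and Mapk11 and Mapk12 encode the beta and gamma forms of p38. These arrays thus gave no usable level for them, which is not evidence that the transcripts were absent.

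Of the p38 genes, Mapk13 and Mapk14 were measured. Mapk14 encodes p38 alpha, the main p38 of macrophages, and Mapk13 encodes p38 delta. Both fell. Mapk14 was measured at 3.03, 2.95, 2.92 and 2.91 on control and 2.58, 2.51, 2.44 and 2.53 on NM401 arrays. It fell by 0.43 (SE 0.05, limma adjusted p = 0.000384), 1.35-fold, with no overlap and little spread in either group, and by 0.23 under median scaling, where it was still called. Mapk14 has a second probe, 396 bases upstream, at which it fell by 0.43 (SE 0.05, limma adjusted p = 0.000312). The first 30 bases of both probes are shown because they are separate stretches of the gene that gave nearly the same difference.
Mapk14 probe at chr20:6999918-6999976, plus strand: tctcgtatttaggtcaaggtgtctccattc
Mapk14 probe at chr20:7000314-7000373, plus strand: atctggtatgccataggatgtcagacaata
Positions of these and the other probes are those in the deposited files, on rat build rn4, and whether a probe lies in a coding exon or an untranslated region was not analysed here. Mapk13 was measured at -3.66, -3.64, -3.73 and -3.43 on control and -4.18, -5.04, -4.78 and -4.97 on NM401 arrays. All NM401 arrays lay below all controls, but NM401 replicate 1 stood closest to them. Mapk13 was 2.18-fold lower, a difference of -1.13 (SE 0.18, limma adjusted p = 0.00132). With slide as a block, which rests on NM401 replicate 1, the difference was -0.56 (limma adjusted p = 0.0246), and without that array it was -1.31.

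**Figure D2:**
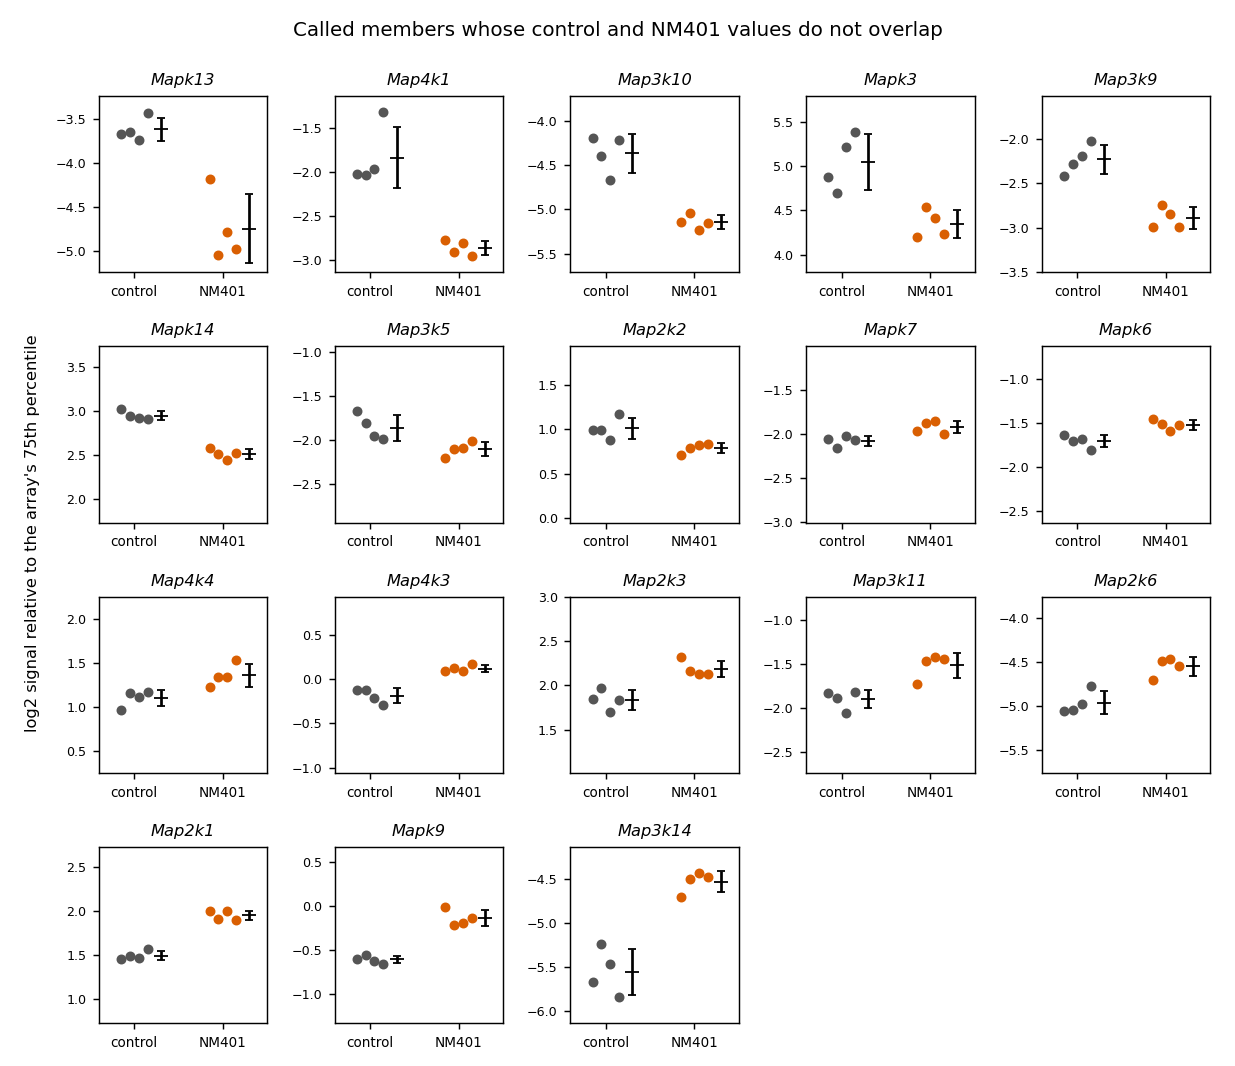
Log2 signal relative to the 75th percentile of the array (y axis) for the 18 called kinases whose groups did not overlap, 4 control and 4 NM401 arrays each, as points with the mean ± SD. The NM401 points of Mapk13 run from -5.04 to -4.18 and those of Map2k1 from 1.90 to 2.00, which shows how unequal the spread between replicates was.

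Mapk3 encodes ERK1, which MEK1 and MEK2 activate and which carries growth and stress signals to the nucleus. Mapk3 was measured at 4.88, 4.70, 5.23 and 5.39 on control and 4.20, 4.54, 4.41 and 4.24 on NM401 arrays. The groups did not overlap, the controls were spread more widely than the NM401 arrays, and Mapk3 was 1.62-fold lower, a difference of -0.70 (SE 0.16, limma adjusted p = 0.00642). Under quantile normalisation its difference was -0.40. Mapk3 had the highest signal of the kinases. Its control values ran in the reverse order of the percentiles used for scaling, from 5.39 at 958 units (replicate 4) to 4.70 at 1489 units (replicate 2). Whether a signal this bright follows the percentile was not tested, so the size of the fall depends on that scaling.

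The JNK genes Mapk8 and Mapk9 encode JNK1 and JNK2. Mapk9 was measured at -0.60, -0.55, -0.62 and -0.65 on control and -0.01, -0.21, -0.19 and -0.14 on NM401 arrays at its brightest probe. The groups were well separated, and Mapk9 was 1.38-fold higher, a difference of 0.47 (SE 0.06, limma adjusted p = 0.000438). It was read by 4 tested probes, and 30 bases of each are shown from upstream to downstream because the last did not share the rise.
Mapk9 probe 1 at chr10:35378241-35378300, plus strand: agtaccctggaatcaaatttgaagagctct
Mapk9 probe 2 at chr10:35383202-35383264, plus strand: gttcaagatcattcaggtgagcaattagaa
Mapk9 probe 3 at chr10:35383376-35383435, plus strand: atcttccaggtagttctgcttctagaataa
Mapk9 probe 4 at chr10:35386392-35386451, plus strand: tatgactcctctgatgcctcatgctggtgg
Probes 1 and 2 were higher by 0.41 (SE 0.06) and 0.58 (SE 0.08), and probe 3 is the brightest probe given above. Probe 4 read -1.77, -1.71, -1.78 and -1.69 on control and -1.71, -1.78, -1.81 and -1.77 on NM401 arrays, a difference of -0.03 (SE 0.05, limma adjusted p = 0.683). At that probe the groups overlapped, while at the 3 upstream probes they did not overlap. Another Mapk9 probe was well above background on 1 array and was not tested. The 3 tested probes of Mapk8 gave 0.19, 0.24 and 0.43, and none was called.

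**Figure D3:**
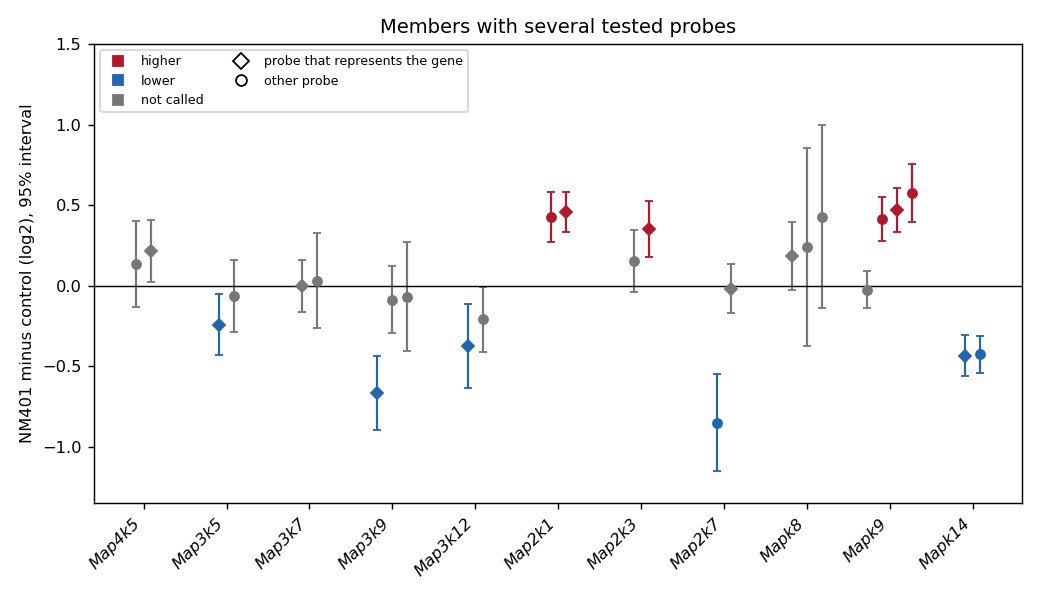
Difference between NM401 and control arrays (log2, y axis) at every tested probe of 11 kinases with several tested probes, with the 95% interval of the limma fit; a diamond is the probe that stands for the gene. The probes of Mapk9 run from -0.03 to 0.58, and the pair for Mapk14 coincide at -0.43.

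Mapk6 and Mapk7 rose slightly. Mapk6 encodes ERK3, an atypical MAPK outside the classic cascade, and was measured at -1.63, -1.70, -1.68 and -1.80 on control and -1.46, -1.51, -1.59 and -1.52 on NM401 arrays. It rose by 0.18 (SE 0.06, limma adjusted p = 0.0241) with no overlap, but was not called without NM401 replicate 1, 2 or 4 (largest adjusted p 0.0612), with slide as a block (0.071), or with normexp background correction, where it differed by 0.09. Mapk7 encodes ERK5 and was measured at -2.05, -2.16, -2.03 and -2.06 on control and -1.97, -1.87, -1.85 and -2.00 on NM401 arrays. It rose by 0.16 (SE 0.06, limma adjusted p = 0.0477), and the call was lost in each of the 8 fits that left out 1 array, with adjusted p from 0.0505 to 0.126, and with slide as a block (0.389).

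The kinases can be read along the branches, a grouping added after the values were seen. In the p38 branch the activators Map2k3, at its brighter probe, and Map2k6, on processed signal, were higher. The p38 genes Mapk14 and Mapk13 were lower. In the ERK branch Map2k1 was higher and Mapk3 was lower, with the limit of scaling given above for Mapk3. Map2k2 was lower as scaled here, but not called with quantile normalisation, median scaling, normexp background correction or the deposited series values. In the JNK branch Map2k4 was not called, nor was Map2k7 at its brighter probe. Of the JNK genes, Mapk9 was higher at 3 of its 4 tested probes and Mapk8 was not called. The tests were made gene by gene, and no difference between branches was tested.

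How the arrays were scaled and how background was handled moved the balance of calls among the kinases. With processed signal scaled to the 75th percentile the split was 10 higher to 9 lower, with median scaling it was 14 to 6, with quantile normalisation 11 to 8, with normexp background correction 7 to 14, and with the deposited series values 6 to 10. Median scaling raised the difference of each of the 34 kinases by the same 0.20. The median difference of all genes was -0.10, 0.11, -0.01, -0.24 and -0.21 in these sets of values. Under all of these, Map2k1, Map2k3, Map3k11, Map4k3, Map4k4 and Mapk9 were called higher and Map3k9, Map3k10, Map4k1, Mapk3, Mapk13 and Mapk14 lower. The probes of Map3k10 and Mapk13 were dim on NM401 arrays, with means of -5.14 and -4.74. As for Map3k14 and Map2k6, normexp and the series values cannot settle the direction of such probes. Their calls there are therefore no separate check of these 2 falls. With slide as a block, Map2k1, Map2k3, Map3k14 and Mapk9 were called higher and Map3k9, Map3k10, Map4k1, Mapk3, Mapk13 and Mapk14 lower. Within slide 1 there was 1 NM401 array against 4 controls, so the fit took its spread from the controls and assumed that the lone array varies like them. There Map2k1 (limma adjusted p = 0.0471) and Mapk9 (0.0391) passed the threshold and the other kinases did not, which is no replicate check of either gene.

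**Figure D4:**
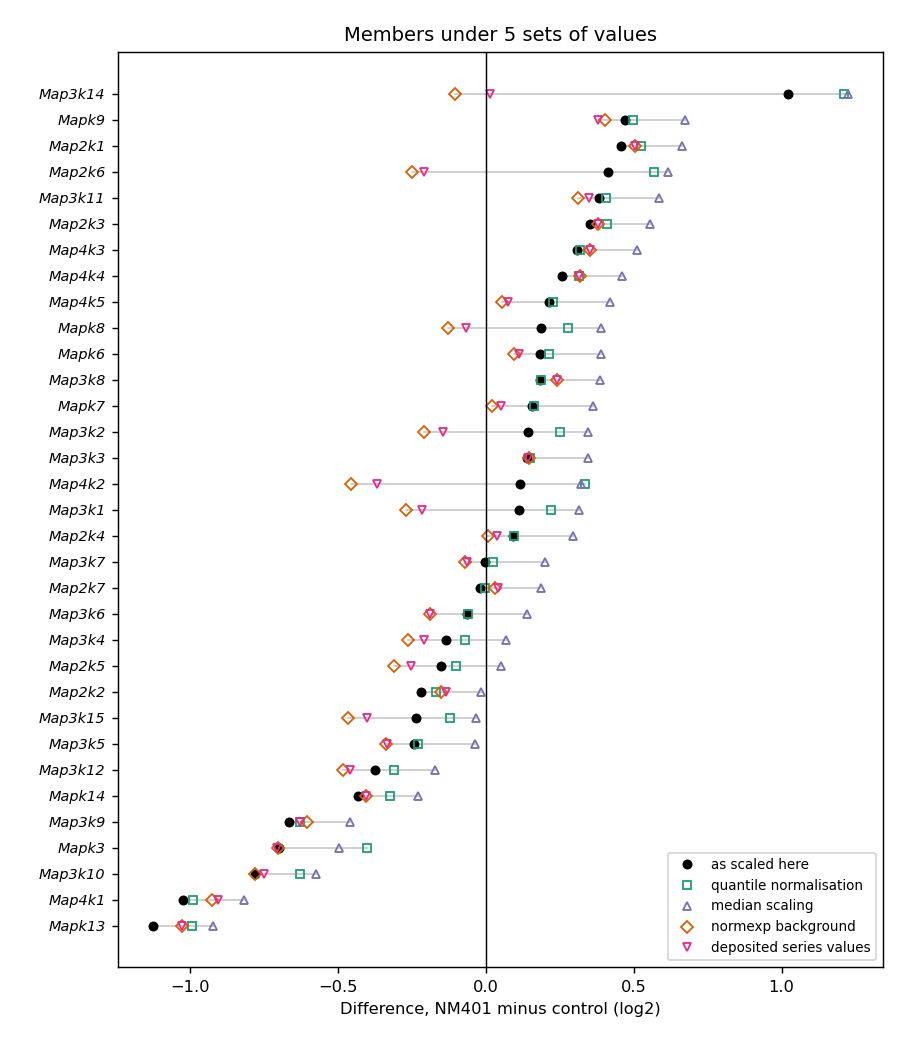
Difference between NM401 and control arrays (log2) of 33 of the 34 tested kinases under 5 sets of values, each kinase a row and each set a mark. Most kinases keep their side of 0, while Map2k6 runs from -0.25 to 0.62 and Map3k14 from -0.11 to 1.22.

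Pathway genes that carry other names were read from 6 lists, of which 96 genes were on the array and 78 were tested. Of these 34 rose, 24 fell and 20 were not called, with a median difference of 0.02. That is 74.4% called, 43.6% higher and 30.8% lower, where 57.3%, 21.9% and 35.4% of all genes were called, higher and lower, and no list was tested against other genes. Cascade kinases under other names gave 3 higher, 1 lower and 5 uncalled of 9 tested, with a median of -0.05. Nlk, an atypical MAPK, rose by 0.25 (SE 0.06, limma adjusted p = 0.00884), and the MAP3K gene Taok2 by 0.70 (SE 0.13, limma adjusted p = 0.00257). With normexp background correction Taok2 differed by 0.13, and with slide as a block by 0.29, called in neither, and Nlk was not called with slide as a block. Zak, a MAP3K that senses stalled ribosomes, fell by 0.22.

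Kinases that ERK and p38 phosphorylate gave 1 higher, 5 lower and 3 uncalled of 9 tested, with a median of -0.43. Their share called lower was 55.6%, against 35.4% of all genes. Mknk2, which phosphorylates the cap-binding factor eIF4E, was measured at 3.47, 3.40, 3.36 and 3.44 on control and 2.72, 2.51, 2.49 and 2.49 on NM401 arrays. It fell by 0.86 (SE 0.07, limma adjusted p = 6.8e-05). Rps6ka1, which encodes the ribosomal S6 kinase RSK1, fell by 0.52 (SE 0.06), and Rps6ka4, which encodes the histone kinase MSK2, fell by 0.64 (SE 0.08). Rps6ka3, which encodes RSK2, rose by 0.42. The p38 targets Mapkapk2, Mapkapk3 and Mapkapk5 were not called.

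Scaffolds and adaptors, which hold cascade kinases together, gave 8 higher, 7 lower and 5 uncalled of 20 tested, with a median of 0.01. The JNK scaffold Mapk8ip3 rose by 0.89 (SE 0.09) and Lamtor1, which anchors MEK and mTOR complexes to the lysosome, by 0.54 (SE 0.06). The arrestin gene Arrb2 fell by 0.61 (SE 0.07). Small GTPases and their exchange factors and adaptors gave 7 higher, 6 lower and 2 uncalled of 15 tested, with a median of -0.01. Hras rose by 0.52 (SE 0.06). Cdc42, a GTPase that shapes the actin cytoskeleton and can switch on MAP3Ks, fell by 0.44 (SE 0.07), and under quantile normalisation it differed by -0.14 and was not called.

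Nuclear targets gave 6 higher, 4 lower and 3 uncalled of 13 tested, with a median of 0.05. Fos, an AP-1 subunit whose gene ERK signalling switches on, was well above background on 0 control and 4 NM401 arrays and was at least 5.95-fold higher. Atf2, a target of p38 and JNK, rose by 0.73 (SE 0.07). The p38 target Mef2a fell by 0.72 (SE 0.07) at its brightest probe, but the mean of its probes differed by -0.16 and was not called. The phosphatases that switch MAP kinases off gave 9 higher, 1 lower and 2 uncalled of 12 tested, with a median of 0.57. Their share called higher was 75%, where that of all genes was 21.9%, and nothing was tested over the list. Dusp1, which acts on p38 and JNK, was measured at -8.25, -7.71, -7.87 and -6.47 on control and -3.69, -4.00, -4.09 and -3.60 on NM401 arrays. It was above background on 0 control and 4 NM401 arrays and was at least 7.89-fold higher. Such a bound sets the NM401 mean against a control level raised, on each array, to the dimmest signal that counts as well above background where the probe lay under it. Probes brighter than that dimmest signal were not always marked well above background, so the bounds for Dusp1 and Fos are approximate. Dusp7, an ERK phosphatase, rose by 1.43 (SE 0.17) from a control level well above background on 3 of 4 arrays, and Ppm1d, which encodes the p53-induced phosphatase Wip1, fell by 0.68 (SE 0.07).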

How the data were processed

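RNA of 8 cultures, 4 control and 4 NM401, was read on Agilent arrays in 1 colour (Cy3), as the labels' protocols describe. The deposited files give spot intensity from Agilent Feature Extraction (version 11.0.1.1 in the submitters' processing notes), per the file headers, whose processed signal is background-subtracted and detrended within an array and not scaled between arrays. Outlier spots were left out, 47 probes were dropped for it, and replicate spots were averaged as log2 values. Each array was scaled to its 75th percentile over 58717 non-control spots. NM401 and control were compared with the two-sided moderated test of limma 3.58.1 under R 4.3.3 (files read with data.table, version 1.17.8), without covariates. Code was tested on simulated data. Arrays, 4 in each group, limit the precision.

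The kinases and the lists were chosen with earlier results of these data known, so no list was tested as a set and no p was adjusted over a list alone. Values on each array are given for kinases called with no overlap between groups, and up to 3 members with the smallest p are named in each pathway list, further ones after their values were seen. A few genes under this rule are not reported here by name, though the counts include them. Names follow the array, with 21109 probes also matched to RefSeq (GRCr8) for the other genes. A probe that RefSeq assigns to another MAP3K, named otherwise on the array, was not taken. The alternatives were normexp background correction (offset 50), quantile normalisation, median scaling, no filter on dim probes, a filter asking for all 8 arrays, the deposited series values, the mean of a gene's probes, slide as a block, slide 1 alone, a replicate block, and leaving out each array. The deposited series values are median spot intensity without background subtraction. They were taken as log2 and scaled to the same percentile as the processed signal. Same-numbered arrays deviated together with correlations of 0.19, -0.01, 0.09 and -0.06, so the numbers were not taken to pair the cultures.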

Additional observations from a re-analysis of the deposited data

Results flagged for a closer look

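In 3 of 68 groups of 4 arrays, 1 array lay farther from the others than Dixon's test allows at the 95% level, and chance marks about 1 group in 20. Map4k1 on control replicate 4 was -1.32, with the other controls between -2.04 and -1.96. Map3k8 on control replicate 4 was -0.64, with the other controls between -0.04 and 0.07. Map3k11 on NM401 replicate 1 was -1.73, with the other NM401 arrays between -1.47 and -1.43.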

How the results depend on the processing

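Over 18 alternatives and the 34 tested kinases, 506 of 610 comparisons stayed on their side of the threshold (28 of these turned sign while uncalled both times), 78 lost the call, 20 gained it and 6 turned with a call on either side. The turned values were, with normexp background correction, -0.27 for Map3k1, -0.25 for Map2k6, -0.21 for Map3k2 and -0.11 for Map3k14, and with the deposited series values -0.22 for Map3k1 and -0.21 for Map2k6. Normexp added 50 signal units, the series values kept their background, and the percentile used for scaling differed between groups. The part of this in the turned values was not tested. Kinases called higher, 10 in the report, numbered 6 with the deposited series values, 4 with slide as a block and 2 within slide 1. Kinases called lower, 9 in the report, numbered 14 with normexp and 0 within slide 1, where limma gave 6 lower and 5 higher at an unadjusted p below 0.05. The filter on dim probes, removed, left 7 higher and 6 lower. Pathway genes with other names, 34 higher and 24 lower, numbered 19 higher with slide as a block, 5 higher and 6 lower within slide 1, and 11 lower with median scaling. Over all genes, higher calls were 38.2% of calls, against 22.6% with normexp, 49.5% with quantile normalisation, 64.5% with median scaling, 25% with the series values and 27.5% with no filter. Leaving out each array in turn gave 7 to 10 kinases higher and 6 to 10 lower, and 31 to 34 pathway genes higher and 18 to 21 lower, and 13 of the 19 called kinases were called in all 8 of these fits. With the replicate number as a block, 8 kinases were higher and 9 lower, as were 32 and 20 pathway genes with other names, and Map3k5, Mapk6 and Mapk7 were not called. Slide fits rest on NM401 replicate 1 and take it to vary like the other arrays. Dim probes, such as those of Map3k14, Map2k6, Map4k2, Map3k10 and Mapk13, limit what background treatment leaves readable.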
